A study of Mus musculus with 5 samples.

Results

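The lymphoid chemokines Ccl21a, Ccl19 and Cxcl13, the chemokine receptor gene Ccr7 and the lymphatic vessel genes Prox1, Mmrn1, Lyve1, Flt4 and Pdpn were followed as a set of 9 genes through single cells of the mouse mammary gland. The set was matched by symbol and is 9 of 27933 symbols in the count tables. The genes were chosen by their levels and differences in endothelial, stromal and immune cells of the same libraries, so member levels between groups are given as descriptions without a test. Single-cell transcriptomes came from 5 droplet libraries made with 3′ tags. BPK mice carried Brca1 wt/flox, Trp53 flox/flox and Krt14cre. PK mice carried Brca1 wt/wt with the same Trp53 flox/flox and Krt14cre alleles, so every group has the Trp53 deletion. Krt14cre drives recombination in the Krt14 lineage, which is epithelial, so endothelial, stromal and immune cells are not the cells the deletion targets. The groups were BPK glands after 12 intraductal injections of PBS/PEG vehicle (1 library), PK glands after 12 injections of 4NQO (1), BPK glands after 12 injections of 4NQO (2) and a BPK tumor that formed after 24 injections of 4NQO (1). 4NQO is a quinoline carcinogen that forms adducts on DNA. Age and strain of the mice are not stated in the labels. Lymph nodes were removed from the glands before digestion, per the labels. Whether the replicates of BPK 4NQO come from separate animals is not stated, so p-values measure only the spread between these libraries, which may be technical.

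CCL21 and CCL19 are the ligands of CCR7, the receptor that brings mature dendritic cells and naive T cells into lymphatic vessels and lymph nodes. Lymphatic endothelium secretes CCL21, which dendritic cells follow into the vessel, and stromal cells of lymph nodes make CCL19. CXCL13 attracts B cells through CXCR5. PROX1 is the transcription factor that sets lymphatic identity. FLT4 is the receptor for the lymphatic growth factor VEGFC, LYVE1 is a hyaluronan receptor of lymphatic capillaries, MMRN1 is a secreted multimerin, and podoplanin, encoded by Pdpn, is a surface mucin that binds the platelet receptor CLEC2. In the mammary gland lymphatic vessels run through the fat pad and drain to the inguinal node. LYVE1 is also known from tissue macrophages, and podoplanin from fibroblasts and basal epithelium.

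Ccl21a (ENSMUSG00000094686, mm10 chromosome 4, 42772860 to 42773993, minus strand) has annotated copies that are nearly the same sequence, so the copies were compared before any count was read. Of the 870 bases of the Ccl21a transcript, Gm21541 differs at 6, and Gm13304 differs at 5 of 837 aligned bases. The 402-base model of Ccl21b differs at 2 bases, both in the coding region and shared by all 3 copies. These windows around the coding differences show how little separates the genes. The differing base is in capitals, positions are counted from 1 at the 5′ end of the Ccl21a transcript, the sequences are from the GENCODE M21 annotation on mm10, and each window lies within 1 exon.
Ccl21a, chr4:42773722-42773763, minus strand: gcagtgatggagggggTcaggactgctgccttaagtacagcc
Ccl21b, chr4:42255922-42255963, plus strand: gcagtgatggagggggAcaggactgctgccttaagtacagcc
Gm21541, chr4:41903840-41903881, plus strand: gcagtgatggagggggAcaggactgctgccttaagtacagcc
Ccl21a, chr4:42773518-42773548, minus strand: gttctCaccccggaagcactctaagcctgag
Gm21541, chr4:41904055-41904085, plus strand: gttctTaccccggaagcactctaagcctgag
The first difference is T159A and the second C269T. Gm13304 has the same 42 bases as Gm21541 around the first and the same 31 bases around the second. In the last 300 bases, where 3′ tags mostly fall, Gm21541 and Gm13304 each differ from Ccl21a at 3 bases. A second Ccl21a row (ENSMUSG00000095320, on the unplaced scaffold JH584294.1) had 0 UMIs in all 5 libraries, as did the second Ccl19 row (ENSMUSG00000094661) and the rows of Ccl21b, Ccl21c, Gm13304, Gm10591 and Gm13306. Gm21541 (ENSMUSG00000094065, chromosome 4, 41903610 to 41904743, plus strand) had 8 UMIs in BPK 4NQO replicate 1 and 11 in replicate 2, and 0 elsewhere. Reads of the copies cannot be told apart where they match, so Ccl21a below stands for the counts assigned to it.

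The other members lie at separate sites of mm10. Ccl19 (ENSMUSG00000071005) is at chromosome 4, 42754525 to 42756577, Pdpn (ENSMUSG00000028583) at chromosome 4, 143267431 to 143299564, and Cxcl13 (ENSMUSG00000023078) at chromosome 5, 95956951 to 95961068. Ccr7 (ENSMUSG00000037944) is at chromosome 11, 99144196 to 99155077, and Flt4 (ENSMUSG00000020357) at chromosome 11, 49609263 to 49652739. Prox1 (ENSMUSG00000010175) is at chromosome 1, 190118035 to 190170714, Mmrn1 (ENSMUSG00000054641) at chromosome 6, 60924976 to 60989378, and Lyve1 (ENSMUSG00000030787) at chromosome 7, 110850607 to 110863239.

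After filters 31434 of 34526 barcodes were kept, with 2117 removed as likely doublets and 975 for few genes or high mitochondrial counts. The median depth of a barcode was 2523 UMIs at the lowest, in BPK 4NQO replicate 2, and 15195.5 at the highest, in the tumor. Pairs of libraries had 26 to 107 barcode sequences in common, except that BPK 4NQO replicate 2 had 2 or fewer in common with each of the others. Results that rest on this replicate are given for each replicate apart. Cells were gated by how many genes of a short list had a UMI. A cell was endothelial with 2 or more of the 4 genes Pecam1, Cdh5, Cldn5 and Egfl7, and lymphatic-marked if it also had a UMI of Prox1, Mmrn1 or Flt4. Pecam1 was found in 74.91% to 88.89% of endothelial cells and in 2.174% to 13.04% of epithelial cells. Cldn5 was in 37.04% of endothelial cells of the tumor and 54.31% of BPK 4NQO replicate 2, against 65.12% to 78.36% elsewhere. Cdh5 ran from 62.96% in the tumor to 90.07% in replicate 2, and Egfl7 from 69.1% in replicate 2 to 93.52% in the tumor. Egfl7 was also in 20.37% of epithelial cells of the tumor, against 1.609% to 5.495% in the glands. The gate genes were thus not detected alike in all libraries. The tumor library stands apart: 297 of its 324 endothelial cells also met another gate, and only 27 did not. In the glands 22.28% to 34.96% of endothelial cells met another gate. Results that rest on the tumor's endothelial cells are given with this in view. CPM denotes counts per 1000000 UMIs of the cells named. Intervals are exact 95% intervals (Poisson for CPM, Clopper-Pearson for shares) and cover counting error only, since cells of 1 library are not replicates.

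Ccl21a transcripts lay nearly all in a few lymphatic endothelial cells. Over all barcodes it had 339 UMIs in BPK vehicle, 348 in PK 4NQO, 2465 and 676 in BPK 4NQO replicates 1 and 2, and 1431 in the tumor. Of these 5259 UMIs, 5040 (95.84%) lay in 25 barcodes with 5 or more each, a limit set after the values were seen. BPK vehicle had 2 such barcodes, PK 4NQO 2, BPK 4NQO 8 and 8, and the tumor 5. The lowest of the 25 held 6 UMIs, and the barcodes just outside the limit were 5 with 4 UMIs. The richest single barcode, in BPK 4NQO replicate 1, held 501. Ccl21a reached up to 12.23% of all UMIs of a cell. Each library thus had at least 2 such barcodes.

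In BPK vehicle the rich barcodes held 299 and 22 UMIs, and in PK 4NQO 339 and 6. In BPK 4NQO replicate 1 they ran from 6 to 501 with a median of 333, and in replicate 2 from 18 to 275 with a median of 48. In the tumor they ran from 107 to 394 with a median of 303. Both barcodes of vehicle and both of PK thus lay within the range of replicate 1 by their UMIs. The vehicle barcode with 22 also held 24 UMIs of the epithelial gene Epcam and met another gate. The PK barcode with 6 had no UMI of Prox1, Mmrn1, Flt4, Lyve1 or Pdpn. These were the only rich barcodes of vehicle and PK kept after the doublet filter. Of the 25, 24 had a UMI of Mmrn1, 20 of Flt4, 19 of Prox1, 19 of Lyve1, 18 of Reln, which encodes a secreted matrix protein of lymphatic endothelium, and 15 of Pdpn. The endothelial gate held 24 of the 25.

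**Figure D1:**
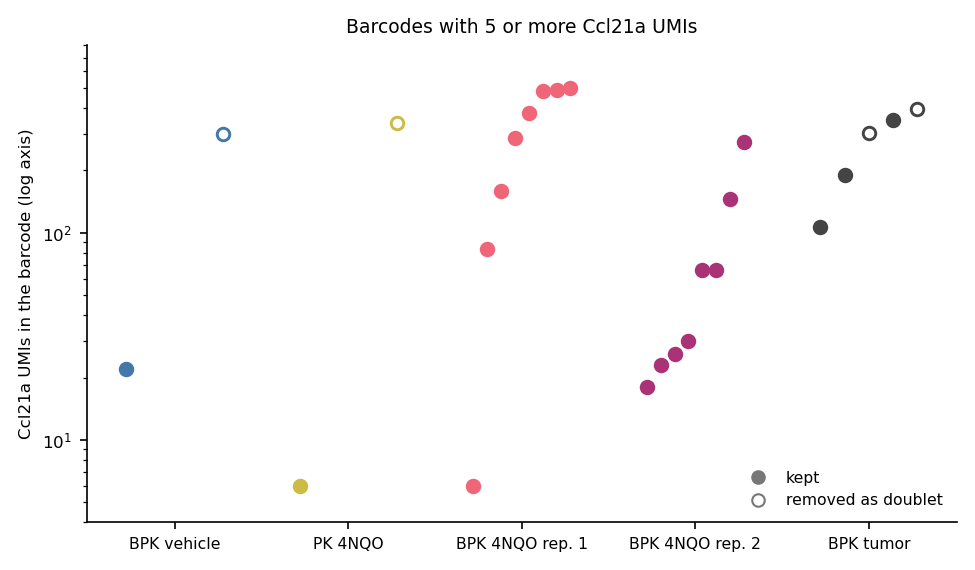
Ccl21a UMIs of each of the 25 barcodes with 5 or more, on a log axis, by library and in order of their value within it, with filled points for kept barcodes and open points for barcodes removed as doublets. The richest barcodes of BPK vehicle and PK 4NQO, at 299 and 339, are open, and the 8 and 8 of BPK 4NQO are all filled.

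The doublet filter removed 4 of these 25 barcodes, none of them in BPK 4NQO. The vehicle barcode held 299 UMIs, the PK 4NQO one 339 and the tumor's pair 303 and 394. Among kept endothelial cells Ccl21a was at 7.57 CPM in BPK vehicle (4.85 to 11.3) and 3.05 in PK 4NQO (1.12 to 6.64). It was at 600 (576 to 625) and 350 (324 to 379) CPM in BPK 4NQO and at 71.2 (65.9 to 76.8) in the tumor. Both BPK 4NQO libraries lay above the other 3. The vehicle value rested on 1 cell with 22 of its 24 UMIs, and that of PK on 1 cell with all 6. With the doublets kept the values were 77.4, 146, 466, 308 and 140 CPM in the same order, so the distance of BPK 4NQO from vehicle and from PK was smaller. With the doublets kept but the richest cell of each library left out they were 5.77, 2.55, 369, 173 and 99.6 CPM. The order of BPK 4NQO above vehicle and PK was the same in all these settings, while its size moved with 1 barcode in vehicle and 1 in PK. Whether the removed barcodes are true doublets was not tested.

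Of the 3915 kept Ccl21a UMIs, 94.15% were in lymphatic-marked endothelial cells, where 25 of 360 cells held 3686. Their level there was 76.1, 0, 5108, 1523 and 821 CPM for vehicle, PK, BPK 4NQO replicates 1 and 2, and tumor. In vehicle all 22 UMIs there lay in 1 cell. Other endothelial cells had 26 UMIs in 21 of 3514 cells, at 0 to 3.51 CPM. Epithelial cells, which serve as a background for free RNA, had 139 UMIs in 132 of 18781 cells, at 0.0705 to 1.57 CPM. The background was highest where the rich cells were: in BPK 4NQO replicate 1 Ccl21a was in 1.20% of epithelial cells (median 5875 UMIs per cell) and in the tumor in 4.32%. Fibroblast-like cells held 5 UMIs, macrophage-like cells 4, and dendritic-like and B cell-like cells 0.

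The genes most like Ccl21a across 36 sums of class and library with at least 30 cells were Apba2 (Pearson r 0.86 of log2(CPM + 1)), Flt4 (0.79), Mmrn1 (0.77), Nts (0.76) and Tbx1 (0.75). They were ranked among 9427 genes at 5 CPM or more on average in lymphatic-marked cells. These sums share libraries and depth, and the correlation is a description. Flt4, Mmrn1 and Prox1, which ranked sixth, define the lymphatic-marked class and are 0 in other endothelial cells, so their ranks are partly built in. Lyve1 had r = 0.58, and Pdpn, at 0.17, did not follow Ccl21a.

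Lymphatic-marked cells were a small share of endothelial cells in each library. They were 65 of 1007 in BPK vehicle (6.46%, 5.02 to 8.15), 65 of 817 in PK 4NQO (7.96%, 6.19 to 10.0), 96 of 1192 and 89 of 534 in BPK 4NQO (8.05%, 6.57 to 9.75, and 16.7%, 13.6 to 20.1) and 45 of 324 in the tumor (13.9%, 10.3 to 18.1). BPK 4NQO replicate 2 and the tumor were high, and replicate 1 lay at the level of vehicle and PK. Thus the treated replicates differed from each other by more than replicate 1 differed from vehicle. Marker detection grows with depth, and after each cell was thinned to 2000 UMIs, which left out shallower cells, the shares were 4.42%, 7.53%, 6.75%, 14.5% and 4.05%. Replicate 2 remained above the others, and the tumor fell to the vehicle's level. Thinning kept 611, 372, 785, 304 and 321 endothelial cells.

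**Figure D2:**
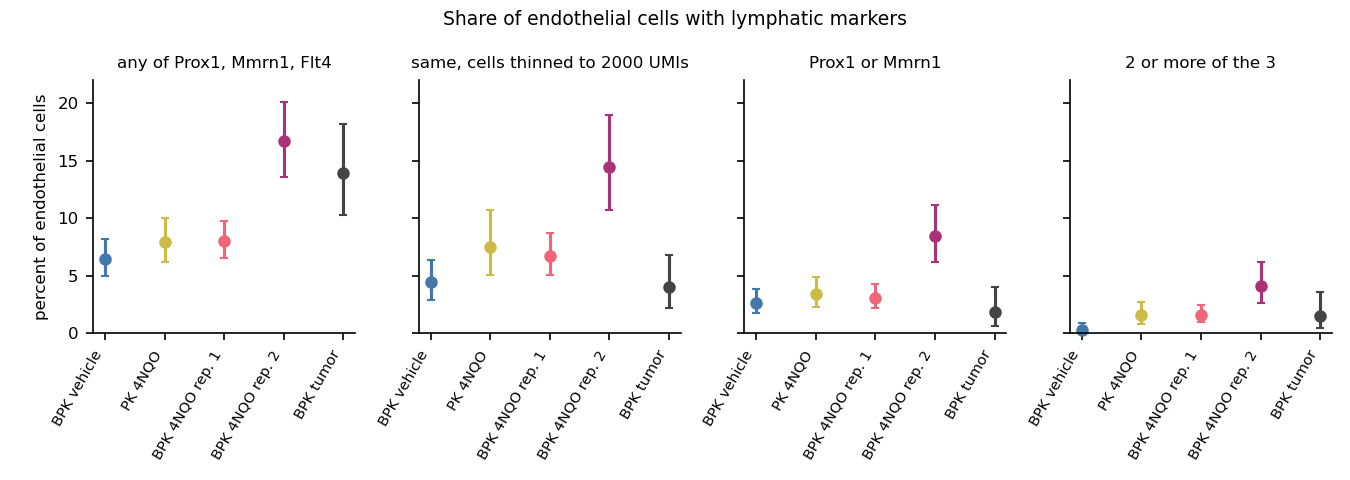
Share of endothelial cells, in percent, that carry the lymphatic marks in each library, as any of Prox1, Mmrn1 and Flt4, the same after thinning to 2000 UMIs, Prox1 or Mmrn1, and 2 or more of the 3, with exact 95% intervals for counting error. BPK 4NQO replicate 2 lies above the other gland libraries in each of the 4 plots, whereas the tumor is at 13.9% in the first and at 1.54% in the last.

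The 3 marks did not pick the same cells. Only 62 of the 360 lymphatic-marked cells had 2 or more of them, while 217 had Flt4 alone and were found in every library (38, 37, 59, 44 and 39 cells). Of the 217 cells, 183 had a UMI of Flt1, which encodes a VEGF receptor of blood vessel endothelium, and 114 of Plvap, the diaphragm protein of fenestrated vessels. Ccl21a was in 2 of them, Reln in 1 and Il7, a lymphocyte survival cytokine that lymphatic endothelium makes, in 0. Flt4 alone therefore marked cells that carried Flt1 in most cases. Plvap did not set them apart, since it was in 42 of the 62 cells with 2 or more marks, where Flt1 was in 5. Cells with 2 or more marks were 3 in BPK vehicle (0.298%, 0.0615 to 0.868), 13 in PK 4NQO (1.59%), 19 and 22 in BPK 4NQO (1.59% and 4.12%) and 5 in the tumor (1.54%). By this stricter count vehicle was lowest, but 7 of its 10 such barcodes had been removed as doublets, against 2 of 15 in PK 4NQO, 4 of 23 and 1 of 23 in BPK 4NQO and 2 of 7 in the tumor. Over all endothelial barcodes of vehicle the filter removed 12.59%.

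Mmrn1 had 96.73% of its 398 kept UMIs in lymphatic-marked cells, where every endothelial cell with Mmrn1 falls by definition. In endothelial cells it was found in 3 of 1007 cells of BPK vehicle, 13 of 817 of PK 4NQO, 20 of 1192 and 22 of 534 of BPK 4NQO and 3 of 324 of the tumor. Its level over endothelial cells was 1.26 CPM (0.344 to 3.23), 30.01 (22.9 to 38.7), 44.6 (38.3 to 51.6), 70.7 (58.9 to 84.1) and 1.94 (1.15 to 3.07). The 3 glands that received 4NQO were thus high, PK included, and vehicle and tumor low. Of the 11 endothelial barcodes of vehicle with Mmrn1, 8 had been removed as doublets, and of the 5 of the tumor 2. The tumor's level is over cells of which 297 of 324 met another gate, and the part of that overlap in its low value was not tested.

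Flt4, the VEGFC receptor, varied less. It was in 40, 46, 75, 64 and 44 endothelial cells, at 13.6 CPM (9.82 to 18.3) in vehicle, 25.9 (19.3 to 34.1) in PK 4NQO, 25.03 (20.4 to 30.4) in replicate 1 and 70.7 (58.9 to 84.1) in replicate 2 of BPK 4NQO, and 8.85 (7.04 to 10.98) in the tumor. BPK 4NQO replicate 1 and PK did not differ beyond counting error, and replicate 2 stood above all others. Of its 444 kept UMIs 90.54% were in endothelial cells, all of them lymphatic-marked by definition.

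Prox1 was found in few endothelial cells, and most of its UMIs were elsewhere. In endothelial cells it was at 8.52 CPM (5.62 to 12.4) in vehicle, 24.4 (18.0 to 32.4) in PK 4NQO, 13.5 (10.2 to 17.6) in replicate 1 and 85.8 (72.7 to 100) in replicate 2 of BPK 4NQO, and 1.51 (0.826 to 2.53) in the tumor. Replicate 2 was again highest, and vehicle and replicate 1 overlapped. Epithelial cells held 62.43% of the 945 kept Prox1 UMIs. They had a UMI in 171 of 5968 cells of vehicle, 146 of 4876 of PK 4NQO, 123 of 4404 and 105 of 2237 of BPK 4NQO and 12 of 1296 of the tumor. In vehicle this share was as large as that in endothelial cells, 26 of 1007, but the epithelial cells were deeper, at 6454.5 against 2369 median UMIs. Detection of Prox1 alone thus does not separate lymphatic cells there. The epithelial signal lay in cells with fewer than 3 of the basal and keratinocyte genes Krt14, Krt5, Krt17, Trp63, Krt6a and Sfn, at 4.11, 5.79, 4.32 and 12.5 CPM in the 4 glands. Only 14 such cells were in the tumor, and they had no Prox1 UMI. In each gland the CPM of endothelial cells was above that of these epithelial cells.

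Lyve1 marked 2 kinds of cells. In lymphatic-marked cells it had 0 UMIs in BPK vehicle and 0 in PK 4NQO, against 70 and 55 in the BPK 4NQO replicates and 68 in the tumor, in 7, 8 and 11 cells. The exact interval of 0 UMIs in these 65 cells each reaches 12.8 CPM in vehicle and 14.4 in PK, while the levels in the others were 150, 134 and 86.0 CPM. Both BPK 4NQO libraries and the tumor were above that limit, and 15 of these 26 cells with Lyve1 were cells with 2 or more marks and 5 or more UMIs of Ccl21a. The 0 of PK depends on the doublet filter, since a removed endothelial barcode there held 6 UMIs of Lyve1, with 2 of Prox1 and 7 of Mmrn1. In vehicle only 3 of the 65 cells had 2 or more marks. With doublets kept there were 10 such cells in vehicle, and Lyve1 was in 0 of them. Macrophage-like cells held more of it, 53.29% of the 852 kept UMIs. There Lyve1 was in 17 of 117 cells of vehicle, 0 of 61 of PK 4NQO, 5 of 102 and 63 of 487 of BPK 4NQO and 2 of 27 of the tumor. Macrophages with 2 or more of Mrc1, Cd163 and Folr2, scavenger receptor and folate receptor genes of resident macrophages, carried it in 14 of 39, 0 of 3, 4 of 14, 47 of 162 and 2 of 8 cells. Macrophages with fewer of these genes carried it in 3 of 78, 0 of 58, 1 of 88, 16 of 325 and 0 of 19. In each library with any Lyve1 in macrophages the share was higher in the first kind.

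Among the 62 cells with 2 or more lymphatic marks, those with Ccl21a at 5 UMIs or more carried other genes than the rest. There were 19 such cells (1 in vehicle, 0 in PK 4NQO, 8 and 7 in BPK 4NQO, 3 in the tumor) and 43 others (2, 13, 11, 15 and 2). Lyve1 was in 15 of the 19 and in 1 of the 43. Reln was in 16 of the 19 and in 5 of the 43. The reverse was seen for Ackr4, which encodes a scavenging receptor that takes up CCL21 and CCL19, in 1 of 19 against 16 of 43. It was also seen for Plvap, in 6 of 19 against 36 of 43. Other lymphatic genes were in both kinds. Nts, a neuropeptide gene, was in 12 of 19 and 28 of 43 cells. Foxc2, a transcription factor of lymphatic valves, was in 6 of 19 and 16 of 43, and Pdpn in 11 of 19 and 25 of 43. Il7 was in 11 of 19 and 11 of 43, a larger share of the first kind. Flt1 was in 0 of 19 and 5 of 43, against 183 of 217 cells with Flt4 alone, whereas Plvap was in 36 of 43 of the second kind against 114 of 217.

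For Lyve1 and Plvap the same pattern was present in each BPK 4NQO library. In replicate 1 Lyve1 was in 6 of 8 cells rich in Ccl21a against 0 of 11 others, and in replicate 2 in 6 of 7 against 0 of 15. Plvap was in 3 of 8 against 8 of 11 in replicate 1 and in 2 of 7 against 13 of 15 in replicate 2. The cells rich in Ccl21a were shallower, at a median of 5498 against 7523 UMIs in replicate 1 and 2479 against 5413 in replicate 2. The part of depth in the lower detection of Ackr4 and Plvap was not tested. All 13 kept cells of PK 4NQO were of the second kind: none had Ccl21a, Lyve1 or Reln, 8 had Ackr4, 11 Plvap and 8 Pdpn. Thus 8 of the 16 cells with Ackr4 among the 43 came from a library with no kept cell of the first kind. With doublets kept PK 4NQO had 1 cell of the first kind and 14 of the second, and that cell held 339 UMIs of Ccl21a, 6 of Lyve1 and 7 of Mmrn1 and none of Reln, Ackr4 or Plvap. Over all libraries there were then 22 and 56 cells, with Lyve1 in 17 and 1, Reln in 18 and 5, Ackr4 in 1 and 21 and Plvap in 7 and 47. The same division was thus present with doublets kept. Since it was noticed in these cells, it is given without a test.

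**Figure D3:**
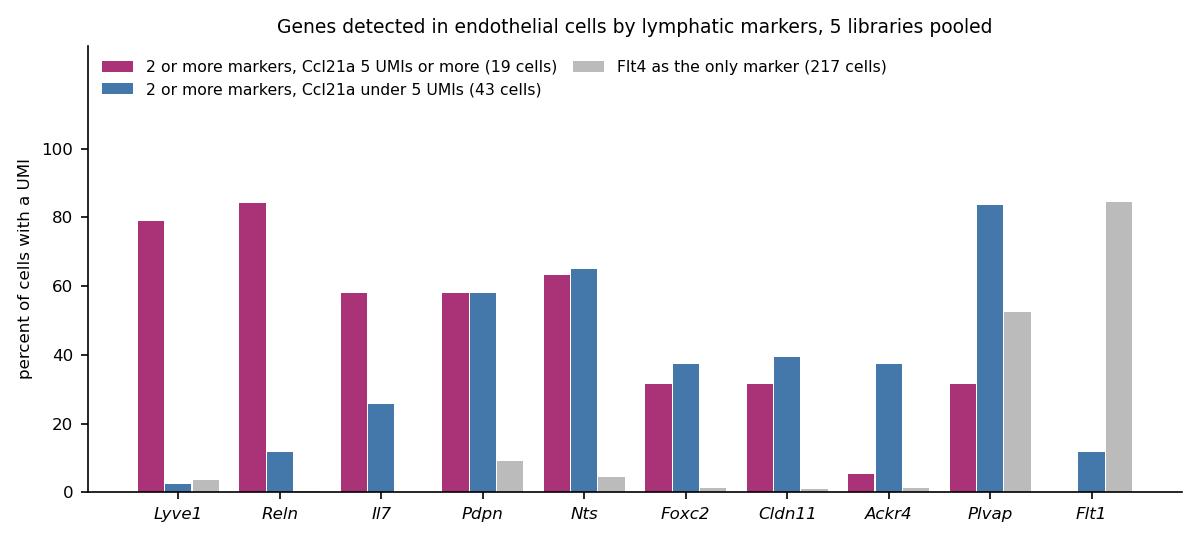
Bars give the share of endothelial cells with a UMI of each gene, in percent, for cells with 2 or more of Prox1, Mmrn1 and Flt4, divided by Ccl21a at 5 UMIs or more (19 cells) and under 5 (43 cells), and for cells with Flt4 alone (217 cells), all libraries together. Lyve1 and Reln lie with Ccl21a, Ackr4 and Plvap with the other 2-mark cells, and Flt1 with the cells that have Flt4 alone.

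Lymphatic-marked and other endothelial cells were compared within each of the 5 libraries with edgeR's quasi-likelihood test on summed counts, with the library as a block. Of 8311 genes tested 50 were called at an adjusted p under 0.05 (0.602%), 38 higher and 12 lower in lymphatic-marked cells. Of the 38, 3 are Prox1, Mmrn1 and Flt4, which define the split and are high by construction, and the other calls are 35 higher and 12 lower. The count was 33 without vehicle, 12 without PK 4NQO, 17 and 11 without BPK 4NQO replicates 1 and 2, and 211 without the tumor. Lymphatic-marked cells were deeper, at 3456 against 2321.5 median UMIs in vehicle. Of the 9 members 4 passed the filter on low counts, those 3 and Pdpn. Pdpn was 2.01 higher on the log2 scale (SE 1.29) with an adjusted p of 0.72, its value turned to -1.21 when the library pairing was left out, and it was called, 3.59 higher, without the tumor (adjusted p = 2.782e-05). Pdpn was also called, 5.32 higher, with 2 or more marks required and 4.41 higher with Prox1 or Mmrn1 required. In the 4 glands Pdpn was at 3.46, 78.0, 89.8 and 90.2 CPM in lymphatic-marked cells against 2.08, 0.585, 5.67 and 14.6 in the others. In the tumor it was the reverse, 58.2 against 538 CPM, where nearly all cells met another gate.

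Of 14 further lymphatic genes 9 were tested, and 4 rose in lymphatic-marked cells, with a median of 1.99 against -0.02 over all genes. Nts was 4.77 higher (SE 0.56, adjusted p = 0.00531 by edgeR), at 6.92, 117, 293, 485 and 158 CPM against 2.08, 17.6, 5.10, 5.10 and 3.77. Fxyd6, which encodes a regulator of the sodium pump, was 3.83 higher (SE 0.51), and Clca3a1, a chloride channel regulator gene known from lymphatic vessels, was 2.08 higher (SE 0.39). Itga9, the integrin subunit of lymphatic valves, was 1.99 higher (SE 0.28). Each of the 4 was higher in 5 of 5 libraries. None of 11 blood vessel genes was called. Keratin genes Krt14 and Krt17 were lower (-3.36 and -3.15), and Krt14 ran from 42.7 to 12160 CPM in the other endothelial cells, highest in the tumor. Another gate was met by 28 of 65, 16 of 65, 29 of 96, 18 of 89 and 43 of 45 lymphatic-marked cells. Among the other endothelial cells it was met by 324 of 942, 166 of 752, 346 of 1096, 141 of 445 and 254 of 279. Libraries are in the order vehicle, PK, BPK 4NQO replicates 1 and 2, and tumor. The part of this overlap of gates in the keratin result was not tested.

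Beyond these lists, genes higher in lymphatic-marked cells included Nsg1 (3.94), a neuronal vesicle gene, Fgl2 (2.98), Wipf3 (2.58), Gdf15 (2.40), a stress cytokine gene, Lbp (2.31), which encodes the lipopolysaccharide-binding protein, and Dusp2 (2.06). Genes lower included Ctsc (-3.87), Sprr1a (-3.46), Lgals7 (-3.19), the smooth muscle genes Acta2 (-2.53), Tpm2 (-2.33) and Myh11 (-2.32), Slpi (-2.12) and Ubd (-1.92). All lay on the same side in 5 of 5 libraries.

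More genes were called with stricter cells. Without cells that met another gate, which left 4 libraries and no tumor, 231 of 5663 genes were called (4.08%). There 6 of 8 lymphatic genes were higher, Maf and Stab1 among them, and 5 of 11 blood vessel genes lower: Flt1 (-0.46), Aqp1 (-0.53), Selp (-1.25), Ackr1 (-1.53) and Sox17 (-0.68). With 2 or more marks required, only PK 4NQO and both BPK 4NQO libraries had enough cells, and 1050 of 7377 genes were called (14.2%). Then 12 of 13 lymphatic genes were higher, with Sema3d (10.2, 123 UMIs against 1), Tbx1 (7.43), Cldn11 (6.59), Nts (6.49), Pard6g (6.45) and Fxyd6 (6.35) at the head. Of 11 blood vessel genes 9 were lower, among them Rgcc (-6.62), Car4 (-5.72) and Flt1 (-4.74). Sox17, an arterial transcription factor gene, had 0 UMIs in the marked cells of the 3 libraries against 336, 711 and 119 in the others, at least 21.4-fold lower with a floor of 3 counts over the group, while Bmx (2.28) and Plvap (0.64) were higher.

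In the same cells 4 of 11 tested genes of the lymphoid chemokine and lymphotoxin axis were higher and 1 lower. Ackr4 was 8.23 higher (SE 0.61), Il7 7.20 higher (SE 0.69), Ackr3, another scavenging chemokine receptor, 2.16 and Tnfrsf11a, the receptor for RANK ligand, 1.73. Cxcl12, the CXCR4 ligand of blood vessels, was lower (-4.74). Of the growth signalling list Tie1 (1.00) and the FLT4 co-receptor gene Nrp2 (0.78) were higher, and Vegfc, the FLT4 ligand gene, was lower (-3.202). Over all lymphatic-marked cells Il7 was at 0, 31.2, 25.6, 21.9 and 2.53 CPM and Ackr4 at 3.46, 85.8, 14.96, 68.2 and 0 CPM in the 5 libraries. Of the FLT4 ligand genes, Figf, which encodes VEGFD, was at 69.7 to 109 CPM in fibroblast-like cells. Vegfc was at 10.97 to 31.3 CPM in other endothelial cells and at 0 to 30.4 in all lymphatic-marked cells.

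**Figure D4:**
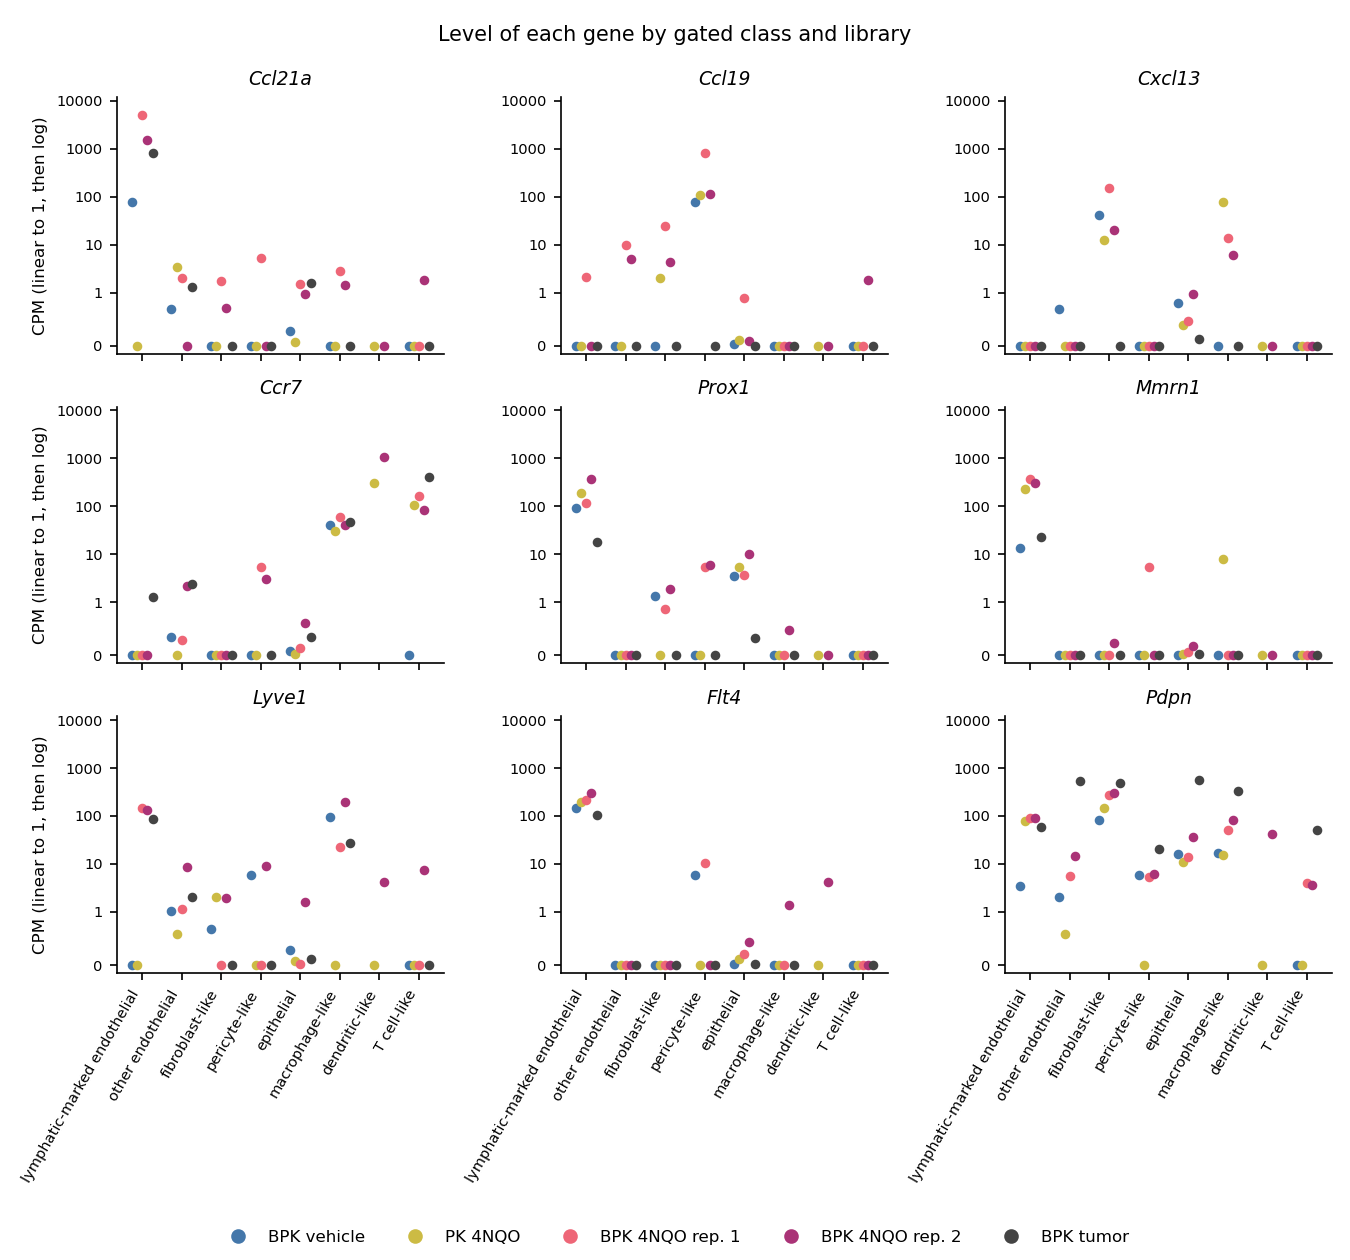
Level of each of the 9 members in CPM by cell class, with 1 point for each library, on an axis that is linear to 1 and logarithmic above, leaving out classes with fewer than 8 cells in a library. Ccl21a and Mmrn1 appear in lymphatic-marked endothelial cells, Ccl19 in pericyte-like cells, Cxcl13 in fibroblast-like and macrophage-like cells, and Pdpn in several classes.

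Ccl19, the other CCR7 ligand gene, was in neither lymphatic cells nor fibroblasts for the most part. Pericyte-like cells, gated by 2 or more of Rgs5, Kcnj8, Abcc9, Notch3 and Higd1b, held 39.93% of its 551 kept UMIs, and cells that met several gates 28.68%. It was in 9 of 108 pericyte-like cells of BPK vehicle, 9 of 95 of PK 4NQO, 20 of 106 and 13 of 132 of BPK 4NQO and 0 of 8 of the tumor. The level was 76.2 CPM (40.6 to 130), 110 (64.2 to 177), 810 (686 to 949), 116 (81.7 to 158) and 0. BPK 4NQO replicate 1 was high, and replicate 2 lay among vehicle and PK, so the replicates did not share a difference from vehicle. Without its richest cell of 39 UMIs replicate 1 was at 617 CPM, and replicate 2, whose richest cell held 18 of 38 UMIs, fell to 61.7. Rgs5, a gate gene, was in 9 of 9, 8 of 9, 19 of 20 and 13 of 13 of the pericyte-like cells with Ccl19. Lymphatic-marked cells had 1 UMI of Ccl19, and macrophage-like and dendritic-like cells 0. In fibroblast-like cells it had 0, 1, 28, 18 and 0 UMIs.

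Cxcl13 was found mostly in fibroblast-like cells. Fibroblast-like cells, with 3 or more of Pdgfra, Lum, Dpt, Col6a3, Clec3b and Mmp2, held 59.28% of its 555 kept UMIs. It was in 26 of 577 cells of BPK vehicle, 4 of 226 of PK 4NQO, 15 of 340 and 42 of 871 of BPK 4NQO and 0 of 16 of the tumor. The level was 41.0 CPM (31.4 to 52.7), 12.3 (4.51 to 26.8), 155 (133 to 180), 20.2 (16.1 to 24.9) and 0, where the interval over 16 cells reaches 36.8. The shares of cells with Cxcl13 were alike in vehicle and both BPK 4NQO libraries, 4.51%, 4.41% and 4.82%. In replicate 1 a single cell held 62 of the 177 UMIs, and without it the level was 101 CPM. Epithelial cells had a UMI in 0.164% to 0.352% of cells. Macrophage-like cells had 28 UMIs in 12 of 794 cells, at 0 to 77.9 CPM by library, and cells that met several gates held 16.94%. Pericyte-like and lymphatic-marked cells had 0 UMIs of Cxcl13. In fibroblast-like cells of BPK 4NQO replicate 1 Ccl19 was in 4 of 15 cells with Cxcl13 and in 6 of 325 without, at 4503 against 2705 median UMIs. No cell had both in replicate 2, where Ccl19 was in 0 of 42 and 5 of 829, nor in vehicle or PK. Cxcr5, the CXCL13 receptor gene, was nearly absent, with 13 UMIs over all kept cells.

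**Figure D5:**
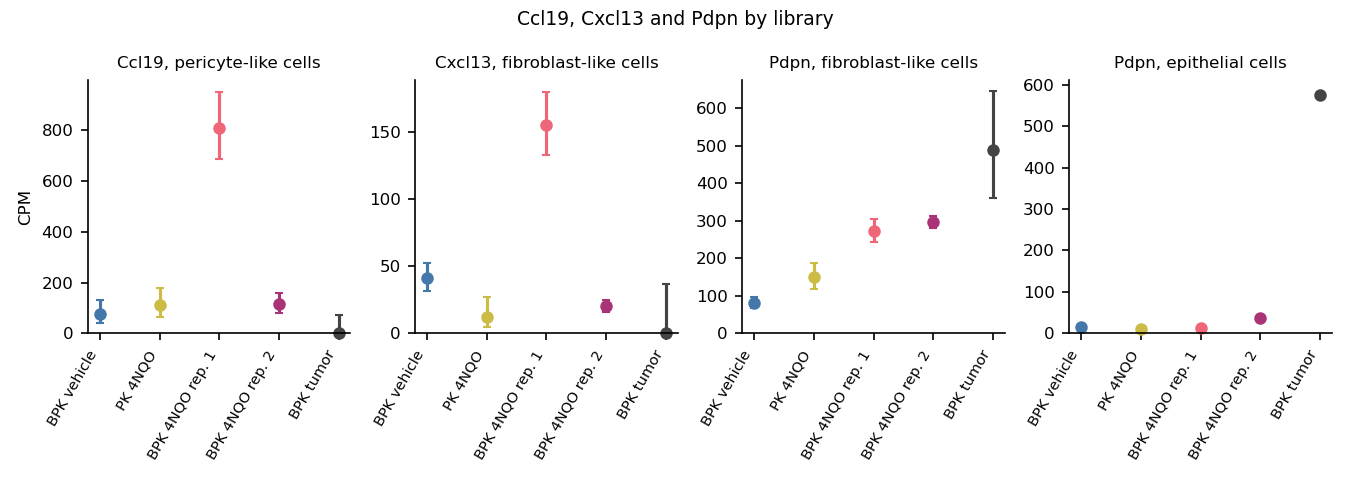
Levels of Ccl19 in pericyte-like cells, Cxcl13 in fibroblast-like cells and Pdpn in fibroblast-like and in epithelial cells, in CPM for each library, with exact 95% Poisson intervals for counting error. The high value of BPK 4NQO replicate 1 for both chemokines is not shared by replicate 2, whereas Pdpn in fibroblast-like cells is at 273 and 296 CPM in the 2 replicates.

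Ccr7 was found mainly in dendritic and other immune cells, whose numbers differed greatly among libraries. Of its 1063 kept UMIs, cells that met several gates held 21.73%, and B cell-like cells had 18 in 5 of 27 cells. Dendritic-like cells were 5 in BPK vehicle, 8 in PK 4NQO, 3 and 70 in the BPK 4NQO replicates and 0 in the tumor. Of these, mature ones had 2 or more of Fscn1, Ccl22, Il4i1, Cacnb3 and Socs2 and were 1, 3, 0 and 27. In replicate 2 Ccr7 was in 22 of the 27 mature cells at 1807 CPM (1549 to 2095), and in 22 of 43 others at 571 CPM (454 to 707). The single mature cell of vehicle had 14 UMIs and the 3 of PK 4NQO had 6 in all, so no level can be compared between groups. Epithelial cells had Ccr7 in 0.0205% to 1.00% of cells, far under these shares.

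T cell-like cells had Ccr7 in 0 of 14 cells of vehicle, 4 of 37 of PK 4NQO, 21 of 100 and 23 of 300 of BPK 4NQO and 3 of 9 of the tumor. Its level in BPK 4NQO was 168 CPM (122 to 227) in replicate 1 and 84.7 (62.0 to 113) in replicate 2. The interval of the 0 in the 14 cells of vehicle reaches 158 CPM and overlaps those of both replicates, so it was not distinguishable from either at this depth. Macrophage-like cells had Ccr7 at 31.2 to 59.1 CPM in the 5 libraries with intervals that overlap. Over all cells the level was 1.08, 1.10, 2.75, 25.3 and 3.72 CPM, highest in replicate 2, which also had the most dendritic-like and T cell-like cells. Fewer cells of a type and less RNA per cell cannot be told apart in such sums.

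Pdpn was the most abundant member and the least lymphatic, with 35552 kept UMIs in 4107 cells. Epithelial cells held 65.35% of them, and 0.411% were in lymphatic-marked cells. In epithelial cells with 3 or more of the basal and keratinocyte genes it was at 75.5 CPM (70.1 to 81.2) in vehicle, 86.1 (76.7 to 96.3) in PK 4NQO, 77.9 (70.9 to 85.4) in replicate 1 and 130 (117 to 143) in replicate 2 of BPK 4NQO, and 575 (567 to 583) in the tumor. Vehicle, PK and replicate 1 lay close together, replicate 2 lay above them with an interval that does not overlap theirs, and the tumor was highest, with Pdpn in 996 of 1282 such cells. Epithelial cells with fewer of these genes had 0.483 to 4.27 CPM in the glands.

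In fibroblast-like cells Pdpn was at 81.4 CPM (67.5 to 97.2) in vehicle, 150 (117 to 188) in PK 4NQO, 273 (244 to 306) in replicate 1 and 296 (280 to 313) in replicate 2 of BPK 4NQO, and 489 (362 to 646) in the 16 cells of the tumor. It was in 103 of 577, 54 of 226, 134 of 340, 404 of 871 and 11 of 16 cells. The 16 tumor cells also held basal and keratinocyte genes, 5 of 6 with Trp63 at 0, at 1187 CPM summed against 24.9 to 102.5 in the glands, and their part in the Pdpn value was not tested. Here both BPK 4NQO libraries were above PK, and PK above vehicle, with intervals that do not overlap. No single cell held more than 4.49% of the UMIs in a gland library. Pdpn was in 5 of 26, 0 of 4, 8 of 15 and 16 of 42 of the fibroblasts with Cxcl13 against 98 of 551, 54 of 222, 126 of 325 and 388 of 829 of those without, so it did not go with Cxcl13. Macrophage-like cells had Pdpn at 15.6 to 332 CPM, highest in the tumor, and pericyte-like cells at 0 to 20.1.

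Between groups the design compares 4NQO with vehicle in BPK glands, BPK with PK glands under 4NQO, and tumor with 4NQO-exposed BPK glands. These comparisons share the BPK 4NQO libraries, which were also the only replicated ones, and the members' values below are descriptions from the fit over all genes. In endothelial cells 7 of the 9 members passed the filter in each comparison. None was called, and by edgeR 0 of 11512 genes were called for treatment and 0 for genotype (0.0% each), with 119 and 58 at an unadjusted p under 0.05. In the tumor comparison 43 of 12359 genes were called (0.348%), none of them a member. The treatment differences on the log2 scale were 5.91 for Ccl21a (SE 1.14), 5.36 for Mmrn1 (SE 0.89), 4.71 for Lyve1 (SE 0.91), 3.28 for Pdpn (SE 0.80), 2.38 for Prox1 (SE 1.11) and 1.69 for Flt4 (SE 0.79), all toward BPK 4NQO. Against PK they were 7.19 for Ccl21a and 5.53 for Lyve1, but 0.82 for Mmrn1, 0.85 for Prox1 and 0.74 for Flt4. The values of Lyve1 rest on 3 UMIs in vehicle (0.947 CPM, 0.195 to 2.77) and 1 in PK (0.509 CPM, 0.0129 to 2.83), against 74 and 67 in BPK 4NQO. With doublets kept the treatment differences fell to 2.25 for Ccl21a, 3.13 for Mmrn1, 1.37 for Pdpn and 1.17 for Prox1, and that of Lyve1 was 4.46. Against PK they were then 1.32 for Ccl21a and 2.85 for Lyve1, and 0.69 to 0.77 for Mmrn1, Prox1 and Flt4. Without replicate 2 Prox1 and Flt4 turned to the other side of PK, since replicate 1 was at 13.5 and 25.03 CPM and PK at 24.4 and 25.9. Ccl19 in endothelial cells, 36 and 7 UMIs in BPK 4NQO and 0 elsewhere, rested on 1 cell with 32.

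The fixed lists around the members gave no call in endothelial cells in any of these comparisons, for 12 blood vessel genes, 14 lymphatic genes, 8 growth signalling genes and 13 genes of the chemokine axis tested. The macrophage list, 5 of whose 6 genes were tested with none called, had a median of 2.68 for treatment and 4.53 for genotype. Both were on the side of Lyve1, but for the tumor the list's median was 2.22 and Lyve1 was at -1.08. The list's summed level in lymphatic-marked cells was 13.8, 3.90, 19.2, 60.9 and 38.0 CPM in vehicle, PK, replicates 1 and 2 and tumor, with Cd163 at 0 in each of them but replicate 2. In other endothelial cells it was 15.6, 2.34, 7.37, 173 and 239 CPM. The part of these markers in the Lyve1 values was not tested. The lymphatic list had a median of 1.69 for treatment against -0.01 over all genes, 0.27 for genotype against 0.01, and -1.92 for the tumor against -0.05. The basal gene Trp63 was called in the tumor comparison, 7.38 higher in the tumor, where the gates overlap. In fibroblast-like cells 25 of 9887 genes were called for treatment (0.253%), 1 for genotype (0.0101%) and 20 of 9988 for the tumor (0.2%). Of the members Ccl19, Cxcl13 and Pdpn passed the filter there and none was called. Pdpn was 1.63 higher in BPK 4NQO than in vehicle (SE 1.03), 0.86 higher than in PK (SE 1.00) and 0.67 higher in the tumor (SE 0.96). Among listed genes Car4, a capillary gene, was called for treatment, at 0 CPM in fibroblast-like cells of vehicle, 18.4 and 41.7 in BPK 4NQO and 39.0 in PK 4NQO. Rgcc and Grem1, which encodes a BMP antagonist, were each 4.00 higher in the 16 tumor cells, and 4 keratinocyte genes led by Krt6a (7.31) were also higher there.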

How the data were processed

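Single-cell RNA was measured in 5 libraries. The authors deposited UMI counts per gene and barcode, made per the file headers with Cell Ranger (version 3.0.2 in PK 4NQO and 5.0.1 elsewhere), on mm10 per the submitters' processing notes. Barcodes had from 500 UMIs up, and totals ran from 27383717 to 64169843 UMIs per library. The labels name v2 of the 3′ kit for all libraries.

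From these counts, rows of 1 symbol were summed, and a barcode needed 300 genes and at most 20% mitochondrial UMIs. Scrublet in scanpy 1.11.5 (seed 0) scored the others, and the highest 0.8% per 1000 barcodes of each library were removed as doublets. Cells were gated by detected marker genes. Of the T cell genes 3 were in the files. To compare shares across depths, cells were thinned to 2000 UMIs or 1000 UMIs, and shallower cells were left out.

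Counts were summed per library and class and tested with edgeR 4.0.16 in R 4.3.3 (TMM factors, default filter on low counts, quasi-likelihood test, Benjamini-Hochberg adjusted p under 0.05). The tumor was left out of the treatment and genotype contrasts, and all libraries entered the tumor contrast. In each the spread came from the 2 BPK 4NQO libraries alone. The comparison of lymphatic-marked with other endothelial cells had the library as a block and needed 10 cells on each side. The test was checked on simulated data.

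The members, gene lists and gates were chosen with earlier results of these data known. Genes were named by rule: the members, copies of Ccl21 and Ccl19, called genes of the lists (at most the 6 with the largest change per list), the 10 largest called changes on each side of the endothelial comparison at 32 CPM or more and on 1 side in every library, and the 5 genes most like Ccl21a. A gene that met the rule is not reported here. In the comparison of 62 cells with 2 or more marks, genes of the lists were named after their values were seen. Alternatives were DESeq2 1.42.0, other size factors, no count filter, other gates, doublets kept, thinning and libraries left out.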

Additional observations from a re-analysis of the deposited data

Results flagged for a closer look

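Barcodes removed as doublets lie outside the levels and tests, yet held much of the Ccl21a signal. They held 299 Ccl21a UMIs in BPK vehicle, 339 in PK 4NQO and 697 in the tumor. No such barcode of BPK 4NQO had 5 or more. In BPK vehicle 7 endothelial barcodes with 2 or more of Prox1, Mmrn1 and Flt4 were also among the removed barcodes. No cause for their doublet scores was tested.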

How the results depend on the processing

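No paired analysis between groups was possible because the groups share fewer than 2 replicate numbers. With 1 residual degree of freedom in the contrasts, counts of called genes moved widely. In endothelial cells the treatment count of 0 became 4 with DESeq2, 38 with RLE factors, 43 without the count filter, 46 with only the compared libraries, 25 with doublets kept, 40 with 3 or more endothelial genes and 17 without cells of another gate. The genotype count of 0 became 2, 26, 28, 8, 38, 12 and 4 in the same order. The tumor count of 43 became 860, 631, 1837, 1952, 1347 and 719 in that order, up to the gate of 3 genes, and was 44 without cells of another gate. In fibroblast-like cells the treatment count of 25 was 8 with DESeq2 and 14 with 4 or more fibroblast genes, the genotype count of 1 was 0 and 2, and the tumor count of 20 was 12 with DESeq2. The comparison of lymphatic-marked with other endothelial cells gave 50 calls, and 120 with DESeq2, 373 without the count filter, 4 with the library pairing left out, 86 with doublets kept, 93 with 3 or more endothelial genes, 231 without cells of another gate, 1050 with 2 or more marks and 482 with Prox1 or Mmrn1. Leaving out 1 library gave 11 to 211 calls. Pdpn in this comparison reversed to -1.21 with the library pairing left out. The cause was not tested for any of these.

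The lymphatic-marked share of endothelial cells, in percent, moved beyond its interval as follows. In BPK vehicle it was 4.42 thinned to 2000 UMIs, 2.31 thinned to 1000, 0.298 with 2 or more marks and 2.68 with Prox1 or Mmrn1. In PK 4NQO it was 4.54 thinned to 1000, 1.59 with 2 or more marks and 3.43 with Prox1 or Mmrn1. The values of BPK 4NQO replicate 1 in that order were 3.53, 1.59 and 3.10, and of replicate 2 8.21, 4.12 and 8.43. In the tumor the share was 4.05 and 2.48 thinned to 2000 and 1000, 25.1 with 3 or more endothelial genes, 7.41 without cells of another gate, 1.54 with 2 or more marks and 1.85 with Prox1 or Mmrn1.

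Settings for the Ccl21a level of endothelial cells, in CPM, were chosen after seeing the data. With doublets kept it was 77.4, 146.5, 465.8, 307.5 and 140.2 in vehicle, PK, BPK 4NQO replicates 1 and 2, and tumor. Without the richest cell it was 0.634, 0, 475, 197.5 and 33.6, and with doublets kept and the richest cell left out 369, 173 and 99.6 in BPK 4NQO and tumor. With 3 or more endothelial genes it was 0.441 in vehicle, 703 and 453 in the BPK 4NQO replicates and 218 in the tumor. Without cells of another gate it was 0.676, 1109, 650 and 0 in the same libraries. BPK 4NQO was above vehicle and PK in each of these. Of 108 member ratios with 1 BPK 4NQO library left out, 10 had the opposite sign. Of 351 thinned member shares 271 lay within the main interval, and 171 of 195 fitted member differences moved by less than 1 SE. Cell number limits the members in the tumor's 16 fibroblast-like cells and in dendritic-like cells, and depth limits detection in endothelial barcodes of PK 4NQO, at a median of 1968 UMIs.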

Other observations

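Genes of high endothelial venules, the blood vessels through which lymphocytes enter lymph nodes, were found in a few endothelial cells. The Glycam1 and Chst4 values are for cells without lymphatic marks. Glycam1, which encodes a sulfated ligand of L-selectin, had 0 UMIs in BPK vehicle and 0 in the tumor, 15 in 3 of 752 cells of PK 4NQO, 12 in 2 of 1096 cells of BPK 4NQO replicate 1 and 13 in 5 of 445 cells of replicate 2. Madcam1, the addressin bound by integrin on lymphocytes, was at 2.08, 2.34, 7.37, 5.10 and 0 CPM in those cells of vehicle, PK, BPK 4NQO replicates 1 and 2, and tumor. In lymphatic-marked cells it was at 6.92, 3.90, 8.55, 2.44 and 0 CPM, from 4 UMIs or fewer in each library. Chst4, which encodes the sulfotransferase that completes these ligands, had 4 UMIs in replicate 2 and 0 elsewhere. Epithelial cells had at most 3 UMIs of Glycam1 in a library.

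Ackr2, a scavenging receptor for inflammatory chemokines, lay in fibroblast-like cells at 12.8, 4.10, 8.76 and 17.8 CPM in vehicle, PK and BPK 4NQO replicates 1 and 2. Tnfsf13b, the B cell survival factor gene, was at 5.38, 8.20, 32.4 and 12.8 CPM in the same cells. Cr2, a marker of follicular dendritic cells and B cells, had 20 UMIs in all kept cells. These values were picked from the lists after they were seen and carry no test.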
